A study of Mus musculus with 11 samples.

Results

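AP-1 (activator protein 1) is a transcription factor made of pairs of leucine zipper proteins, and 8 genes that encode its subunits are described here: the Fos family (Fos, Fosb, Fosl1 and Fosl2), the Jun family (Jun, Junb and Jund) and Atf3. They are 8 of the 48440 genes of the culture count table, all 8 passed the filter that left 14432 genes for testing, and all were present in both single-cell matrices. They were selected on the genotype contrast of the cultures, so their values in that contrast are a description and carry no p-value. The material came from Syncrip conditional knockout (cKO) mice and their wild-type (WT) counterparts at E14.5. Syncrip is an RNA-binding protein, also known as hnRNP Q, and the cKO animals were Syncrip fl/fl; Emx1-Cre mice, in which loxP sites flank exons 2, 3 and 4 and the Cre is active in the progenitors of the dorsal forebrain but not in the ganglionic eminences. Bulk RNA-seq was made from 3 WT and 3 cKO cultures of neural progenitor cells (NPCs), which were grown with EGF and bFGF. Single-cell RNA-seq (scRNA-seq) was made from the dorsal cortex of 1 WT and 1 cKO embryo.

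Fos proteins cannot pair with each other and bind DNA only beside a Jun protein, whereas Jun proteins also pair among themselves, and Atf3, a stress-induced member of the ATF/CREB group, pairs with Jun proteins and acts largely as a repressor. Fos, Fosb, Junb and Atf3 are immediate early genes: growth factors, depolarization or stress switch them on through ready-made factors such as CREB and SRF, and their mRNAs decay fast through AU-rich elements. Jund is transcribed more steadily, and Jun lies between these extremes. In neural progenitors AP-1 genes are known as readouts of receptor signaling through the ERK and JNK kinases.

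The DNA upstream of the RefSeq starts of the members with the largest log2 fold changes in cultures is shown first, with Jun for comparison. RefSeq (GRCm38.p6) gave promoters for 7 of the 8 members, all except Fosl1, and the letters are the 150 bases before each RefSeq transcript start, read 5′ to 3′ on the strand of the gene. Capitals mark TGACG, the core of a cAMP response element to which CREB and ATF proteins bind, in either orientation, and also TATAAA and CCAAT.

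Fos chr12:85473740-85473889 (+ strand): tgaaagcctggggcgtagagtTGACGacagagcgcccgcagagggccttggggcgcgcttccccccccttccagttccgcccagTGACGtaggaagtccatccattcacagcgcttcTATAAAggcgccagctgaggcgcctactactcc
Fosb chr7:19310046-19310195 (- strand): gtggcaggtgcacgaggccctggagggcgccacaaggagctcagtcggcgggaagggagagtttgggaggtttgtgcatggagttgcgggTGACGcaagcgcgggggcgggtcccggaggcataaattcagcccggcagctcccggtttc
Junb chr8:84978749-84978898 (- strand): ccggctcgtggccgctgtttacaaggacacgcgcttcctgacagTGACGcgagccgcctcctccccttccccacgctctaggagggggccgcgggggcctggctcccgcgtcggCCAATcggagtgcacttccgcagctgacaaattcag
Atf3 chr1:191183334-191183483 (- strand): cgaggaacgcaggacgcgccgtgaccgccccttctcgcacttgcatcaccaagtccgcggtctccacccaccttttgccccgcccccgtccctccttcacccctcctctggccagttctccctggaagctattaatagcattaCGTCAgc
Jun chr4:95052223-95052372 (- strand): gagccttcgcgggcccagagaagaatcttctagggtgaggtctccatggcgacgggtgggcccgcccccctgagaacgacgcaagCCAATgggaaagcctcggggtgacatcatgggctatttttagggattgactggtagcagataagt

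Over the full 250 bases upstream, TGACG on either strand was found in 4 of the 7 promoters, those of Fos (129 to 125 and 66 to 62 bases before the start), Fosb (60 to 56), Junb (106 to 102) and, on the other strand, Atf3 (7 to 3). It was not found in the windows of Jun, Jund and Fosl2. The windows follow RefSeq starts, which match the start of the counted gene only for Fos and Jun. The Jund window ends at 70697738 on chromosome 8, while the count table starts Jund at 70698949. The Fosl2 and Atf3 windows lie inside the span that the table gives those genes. Smaller offsets hold on the minus strand for Junb (window from 84978749, counted gene to 84978718) and Fosb (window from 19310046, counted gene to 19310051). Of all 32851 mouse promoters of the same length, 17.8% held it. The longer palindrome TGACGTCA, which contains TGACG and which 1.55% of all promoters held, the AP-1 site TGANTCA, at 6.75%, and the CArG box bound by SRF, at 1.47%, were in none of the 7 windows. TATAAA was in the Fos window (33 to 28 bases before the start) and in 12.4% of all promoters, and CCAAT was in those of Jun and Junb and in 33.8%. Only these exact letters were searched for, so variants such as tgacatca in the Jun window were not counted. Sites further upstream than 250 bases could not be found. The absence of a motif therefore holds for these letters and windows only, and not for the promoter as a whole. These are matches of letters in a short window and no measure of binding.

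Each culture library held between 16962903 and 22708400 counts, of which 2.91% to 4.80% were mitochondrial. Values are given as CPM, the counts per 1000000 of a TMM-scaled library. Of the genes tested, 39.5% differed between genotypes at an adjusted p below 0.05 (edgeR quasi-likelihood test, Benjamini-Hochberg), 19.7% of them being higher and 19.8% lower in cKO as shares of all genes tested, and in 50.4% the 3 cultures of one genotype did not overlap those of the other. The labels do not say whether the cultures came from separate animals, so p-values measure the spread between these cultures. Counts over the whole Syncrip gene were 77.9, 79.8 and 79.9 CPM in WT cultures and 90.3, 88.7 and 81.5 CPM in cKO cultures. Such counts cover exons outside the deleted ones and do not check the deletion. WT cultures 1 and 2 and cKO culture 1 carried Y-linked counts and the other 3 cultures did not. Microglia markers, which accompany high Fos in the tissue, summed to 0.78 to 1.56 CPM over 9 genes in WT and 1.83 to 2.68 CPM in cKO cultures, and 1 of the 2 that could be tested was higher in cKO. Astrocyte markers, 8 genes of which 5 were lower and 1 was higher in cKO among 7 tested, summed to 4565 to 4694 CPM in WT and 3156 to 3502 CPM in cKO cultures. The part of these cell types in the results was not tested, and in bulk RNA fewer cells of a type cannot be told apart from less RNA per cell.

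In the cultures, 6 of the 8 members were called higher in cKO (Fos, Fosb, Fosl1, Jun, Junb and Atf3), beside 19.7% of all genes, none was called lower, and Fosl2 and Jund were not called. The same 6 did not overlap between genotypes, beside 50.4% of all genes. Since the members were chosen on this contrast, nothing is read from these counts. The members fell into a group that stood 6.36-fold to 22.6-fold higher in cKO (Fos, Fosb, Junb and Atf3), a pair with smaller differences (Fosl1 and Jun), and the 2 genes that overlapped.

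Among the Fos family, Fos itself, the founding member, stood at 54.9, 60.0 and 81.1 CPM in the WT cultures and at 605, 681 and 684 CPM in the cKO cultures. The lowest cKO culture was far above the highest WT culture, and WT culture 3 was the highest of its group. The fitted log2 fold change was 3.33 (SE 0.13), or 10.0-fold, which ranked 21 from the top among all genes tested. Fosb, a close relative whose truncated splice form accumulates on repeated stimulation, was measured at 6.44, 5.29 and 4.46 CPM in WT and 106, 135 and 126 CPM in cKO cultures. Every cKO culture was far above every WT culture. Its log2 fold change of 4.50 (SE 0.14), or 22.6-fold, was the largest of the members.

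Fosl1 (Fra-1), which lacks the strong activation domain of Fos, was measured at 4.05, 4.46 and 4.51 CPM in WT cultures against 12.9, 12.2 and 10.7 CPM in cKO. No culture crossed between the groups, and the log2 fold change was 1.46 (SE 0.15). Fosl2 (Fra-2), the other member without that domain, was at 9.19, 12.1 and 17.8 CPM in WT and 9.47, 12.3 and 12.2 CPM in cKO cultures. Its groups overlapped, with a log2 fold change of -0.20 (SE 0.20) that became 0.09 without WT culture 3. The Fos family was therefore not raised as a block.

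Among the Jun family, Junb, which pairs with Fos proteins and is a weaker activator than Jun, was at 4.32, 4.46 and 7.27 CPM in WT and at 70.5, 99.7 and 96.9 CPM in cKO cultures. The groups were wide apart, with a log2 fold change of 4.05 (SE 0.20), or 16.5-fold. Jun was already abundant, at 117, 141 and 145 CPM in WT cultures and 156, 203 and 182 CPM in cKO cultures. Its groups did not overlap, but the gap between WT culture 3 and cKO culture 1 was small, and the log2 fold change was 0.42 (SE 0.10), or 1.34-fold. Jund, at 48.9, 62.2 and 61.2 CPM in WT and 55.2, 54.6 and 56.1 CPM in cKO cultures, overlapped, with a log2 fold change of -0.05 (SE 0.10).

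Atf3 was measured at 1.40, 0.613 and 0.535 CPM in WT and 5.30, 5.88 and 5.30 CPM in cKO cultures. WT culture 1 was above the other WT cultures and still below every cKO culture. The log2 fold change was 2.67 (SE 0.31), or 6.36-fold, and 3.24 without WT culture 1. For Fos the log2 ratio of mean CPM was 3.40 among cultures with Y-linked counts (2 WT, 1 cKO) and 3.07 among those without (1 WT, 2 cKO). For Fosb these ratios were 4.18 and 4.87, and for Atf3 they were 2.40 and 3.39, so both were smaller among the cultures with Y-linked counts. Junb gave 4.01 and 3.76, Fosl1 1.61 and 1.34, and Jun 0.28 and 0.40.

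Gene overlaps limit some of these counts, since whether the reads were counted by strand is not given in the sources used here. Of the Junb span, 8.29% is shared with Prdx2 on the opposite strand, which had 6029 to 7187 counts in WT and 4249 to 6241 in cKO cultures. Of the Jun span, 21.6% is shared with the antisense gene Junos, which had 135 to 224 counts in WT and 221 to 300 in cKO cultures. Of the Jund span, 55.1% is shared with Gm11175, which had 0 counts in every culture.

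**Figure D1:**
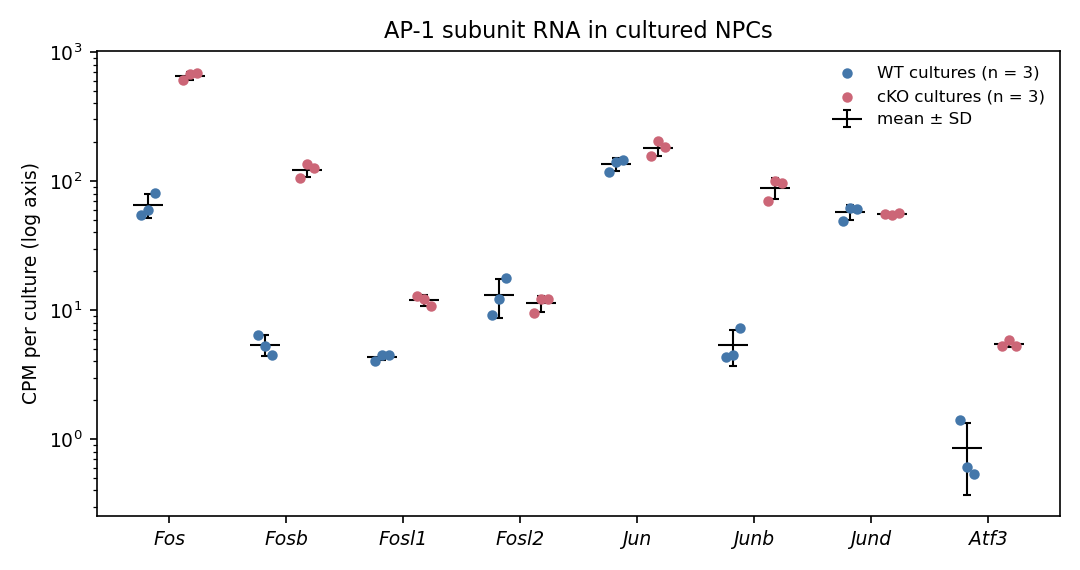
CPM of the 8 AP-1 subunits in each culture on a log axis, with 3 WT cultures in blue, 3 cKO cultures in red and black bars for the mean ± SD. The cKO cultures sit above all WT cultures for Fos, Fosb, Fosl1, Jun, Junb and Atf3, while the points of Fosl2 and Jund overlap.

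Because the members started from unlike levels, the make-up of the family differed as well. Levels of different genes were set side by side as CPM per kilobase of exon (GENCODE M21, whose gene limits for Fosl1 differ from those of the count table). On this scale Jun made up 37.9% ± 1.26 (SD, n = 3) of the 8 genes in WT cultures, Jund 30.9% ± 1.75 and Fos 24.8% ± 2.59. In cKO cultures Fos made up 64.0% ± 1.03, Jun 12.9% ± 0.766, Junb 8.81% ± 0.942, Jund 7.63% ± 0.636 and Fosb 4.48% ± 0.204. The lead thus passed from Jun to Fos. The summed Fos family was 27.3, 29.8 and 39.2 CPM per kilobase in WT and 282, 318 and 318 in cKO cultures, while the summed Jun family was 67.8, 83.5 and 85.5 in WT and 113, 140 and 133 in cKO cultures. Fos family RNA was thus below Jun family RNA in every WT culture, with a ratio of 0.406 ± 0.0512, and above it in every cKO culture, with a ratio of 2.39 ± 0.109 (SD, n = 3 each). These are RNA levels and not amounts of protein pairs.

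**Figure D2:**
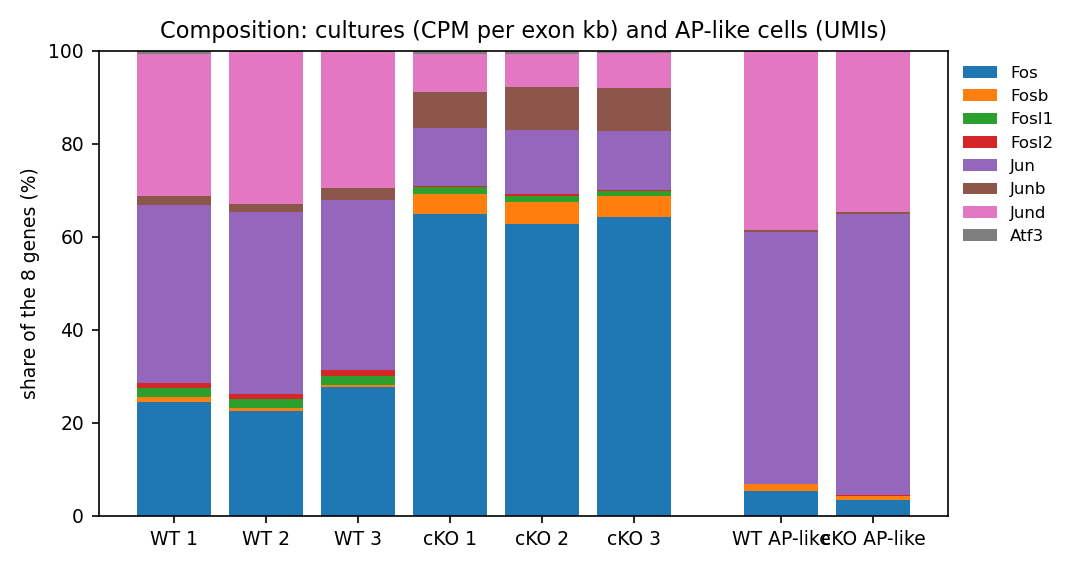
Share of each of the 8 genes in their sum, in percent, for the 6 cultures (from CPM per kilobase of exon) and for the apical progenitor-like cells of the WT and the cKO embryo (from UMIs, which count molecules and need no length). Fos makes up 64.0% of the sum on average in cKO cultures against 24.8% in WT cultures, and 5.39% and 3.42% in the WT and cKO embryo cells, where Jun and Jund lead.

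The wider immediate early response was followed in a list of 24 other genes of this kind. Of the 22 tested in cultures, 18 were called higher and 2 lower in cKO, beside 19.7% and 19.8% of all genes tested. Their median log2 fold change was 2.76, beside 0.002 over all genes. Egr3, a zinc finger factor, was at 0 to 0.09 CPM in WT and 10.8 to 12.9 CPM in cKO cultures. Its relatives Egr2 (0.557 to 1.205 against 34.7 to 37.2 CPM) and Egr4 (0.0446 to 0.630 against 8.24 to 11.1 CPM) and the flow-responsive factor Klf2 (0.279 to 0.405 against 8.04 to 10.1 CPM) were also higher in cKO. Egr3, Egr4 and Klf2 passed the count filter only through their cKO cultures. So did Npas4 (0.279 to 0.535 against 1.62 to 1.81 CPM), named after its values were seen. For these genes the direction was fixed by the filter, and they are part of the count and the median above. The 2 that were lower, named after their values were seen, were Ier5 (mean 38.2 CPM in WT and 13.04 CPM in cKO) and Myc (77.0 and 54.3 CPM). The list was chosen with earlier results of these data known, and its genes were named by their values. These values are therefore a description and carry no p-value.

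Genes that pair with, control or answer to AP-1 were counted in the same fit, and their directions were mixed. Over all genes tested, 19.7% were called higher and 19.8% lower in cKO. Of 15 other leucine zipper factors that can pair with Fos or Jun, 5 were higher and 4 lower. The small Maf proteins Maff (log2 fold change 3.53, SE 0.21) and Mafk (1.25, SE 0.16) rose, and Maf (-1.15, SE 0.10) and the oxidative stress factor Nfe2l2 (-0.65, SE 0.10) fell. The others called, named after their values were seen, were Atf4 (0.21), Ddit3 (0.28) and Bach2 (0.29), which were higher, and Nfe2l1 (-0.53) and Cebpg (-0.45), which were lower. Of 13 SRF, TCF and CREB regulators of the Fos promoter, 4 were higher and none lower: Mkl2 (0.69), Crtc2 (0.52), Crem (0.48) and Elk4 (0.45). Without cKO culture 1 the number called fell to 2, and it was also 2 without cKO culture 2. Their log2 fold changes were small beside those of Fos.

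Both kinase lists are set beside all genes tested, of which 19.7% were called higher and 19.8% lower. Of 17 JNK pathway genes, 3 were higher and 6 lower in cKO. Dusp10, a phosphatase of JNK and p38, rose by 1.01 on the log2 scale, Map3k1 by 0.51 and, outside the naming rule, Map3k7 by 0.30, whereas Dusp8 fell by 0.59 and Mapk10 (JNK3) fell by 0.54. Of 18 ERK pathway genes, 3 were higher and 5 lower, the lower ones being the adaptor Grb2 (-0.56), Mapk3 (ERK1, -0.47), Hras (-0.33) and, named after their values were seen, Nras (-0.30) and Map2k1 (-0.22). The ERK count ranged from 4 to 13 called genes when a culture was left out, being 13 without WT culture 1, 4 without cKO culture 1 and 5 without WT culture 2, cKO culture 2 or cKO culture 3. Neither kinase list moved one way.

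The counts that follow stand beside 19.7% of all genes tested called higher and 19.8% called lower in cKO. Of the 18 genes described elsewhere as AP-1 targets only 9 were expressed enough to test. Of these, 2 were higher and 3 lower, with a median of -0.31. The gap junction gene Gja1, which astrocytes also express, fell from 1115 to 1282 CPM in WT to 354 to 412 CPM in cKO cultures, Ezr fell by 1.28 and Tgfb1 by 0.98 on the log2 scale, and Cd44 rose by 0.67; the other gene that rose, Ccnd1 (0.40), was named after its values were seen. Without cKO culture 3, 3 genes of this list were called. Of 14 genes of AU-rich mRNA decay and stability, 8 were higher and none lower. Zfp36 (tristetraprolin), itself an immediate early gene whose product destabilizes such mRNAs, rose from 2.54 to 3.34 CPM to 32.6 to 48.1 CPM. Zfp36l1 (0.79, SE 0.25) and the deadenylase subunits Pan2 (0.62) and Pan3 (0.54) rose less. For Zfp36l1 the genotypes overlapped, with WT culture 1 at 14.4 CPM and cKO culture 2 at 13.3 CPM. Of 11 heat shock genes that cell dissociation is known to raise, 3 were higher and 1 lower, with a median of 0.14 and a summed level of 3631 to 4173 CPM in WT and 4074 to 4287 CPM in cKO cultures. Among them Hspa1b rose by 1.202 and Hsph1 by 0.23 on the log2 scale, Dnajb4 fell by 0.34, and Hspa1a, named after its values were seen, rose by 2.44 from a mean of 0.217 to 1.24 CPM. Hspa1a passed the count filter only through its cKO cultures, so its direction was fixed by the filter.

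In the embryos the members were read in 8214 cells of the WT and 9559 cells of the cKO embryo. The median cell held 11705 and 11016 UMIs (unique molecular identifiers), respectively. There were 22 barcodes shared between the libraries. Cells were clustered without the members, other immediate early genes, heat shock, sex and mitochondrial genes, and clusters were named from markers. Of 28 clusters 3 stayed unnamed, with 1436 WT and 1388 cKO cells. With 1 embryo per genotype there is no test: values are summed UMIs as CPM with exact 95% Poisson intervals for the counting error alone, and embryo, library and sex (WT male, cKO female) cannot be told apart from genotype. The UMIs read the 3′ end of transcripts, so Syncrip counts do not check the deletion here either.

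In apical progenitor (AP)-like cells, which line the ventricle and divide there, no member stood higher in cKO beyond counting error, and Fos and Fosb stood lower. The class held 997 WT and 1353 cKO cells. Fos gave 60.3 CPM (56.3 to 64.5; 847 UMIs) in WT against 30.7 CPM (28.3 to 33.2; 618 UMIs) in cKO cells, a log2 ratio of -0.97 (-1.13 to -0.82). Fosb gave 15.7 CPM (13.7 to 17.9) in WT against 7.80 CPM (6.63 to 9.12) in cKO cells, a log2 ratio of -1.01 (-1.31 to -0.70). Of the 5 members with at least 100 UMIs these 2 were past 1.5-fold, beside 2.55% of the 11862 genes with as many UMIs. Both went the opposite way to the cultures.

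The Jun family differed less in these cells. Jun, the most abundant member, was at 605 CPM in WT against 543 CPM in cKO cells (log2 ratio -0.16, -0.20 to -0.12), and Jund was at 429 and 309 CPM (-0.47, -0.52 to -0.42). Junb, which rose 16.5-fold in cultures, was rare, at 5.34 and 3.88 CPM, with an interval that reached zero (-0.46, -0.94 to 0.01). Summed over the class, Atf3 had 26 and 24 UMIs (-0.63, -1.50 to 0.22), Fosl2 had 15 and 21 UMIs (-0.03, -1.06 to 1.03) and Fosl1 had 2 UMIs in each embryo, too few for a direction at this depth. Jun and Jund together made up most of the 8 genes' UMIs in both embryos, with Fos at 5.39% in WT and 3.42% in cKO cells.

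**Figure D3:**
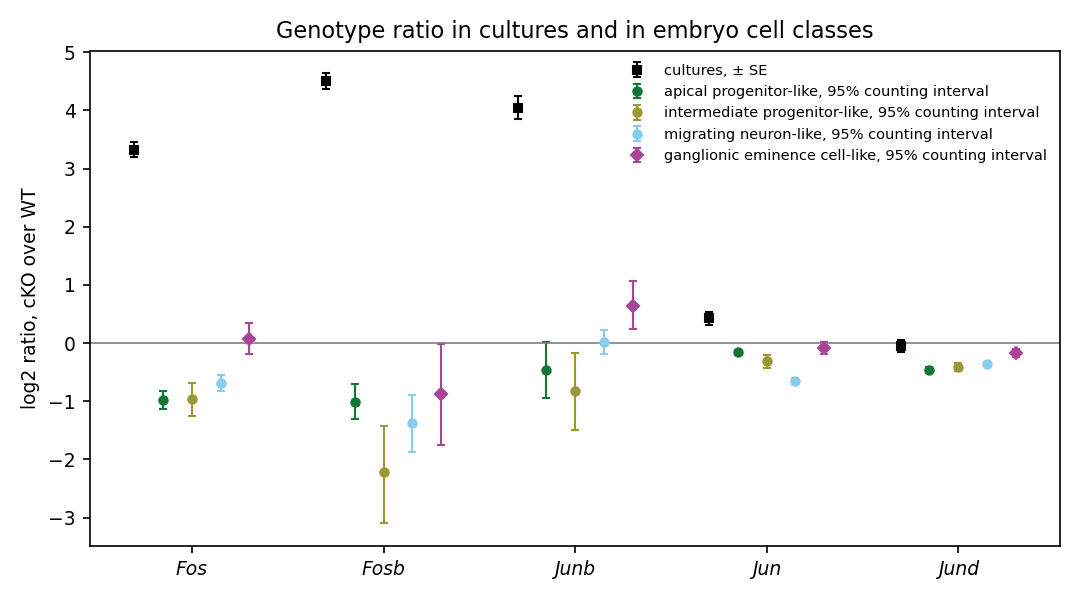
Log2 ratio of cKO over WT for 5 members, from the fit over 6 cultures (black squares, ± SE) and from summed UMIs of 1 embryo per genotype in 4 cell classes (95% counting intervals). For Fos and Fosb the cultures lie at 3.33 and 4.50, and the AP-like cells at -0.97 and -1.01; for Fos the ganglionic eminence-like cells lie at 0.08 with an interval across zero.

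The AP-like class was made of 4 clusters, and the Fos ratio differed among them. In the largest, led by Tshr, Tnc and Hes5, Fos was at 73.8 CPM in WT against 32.9 CPM in cKO cells (log2 ratio -1.17, -1.36 to -0.97). In the cluster led by Cdc20, Cenpf and Ccnb1, genes of mitosis, it was at 52.7 and 13.6 CPM (-1.95, -2.49 to -1.44). In the cluster led by Esco2 and histone genes, as in DNA replication, it was at 39.96 and 38.7 CPM (-0.05, -0.37 to 0.29), so no Fos difference was detectable there. Fosb was lower in all 3, with ratios of -1.21, -0.98 and -0.97 in the order given, and Jund likewise (-0.54, -0.36 and -0.51). The last cluster had few UMIs per cell (median 2778.5) and 27 against 9 Fos UMIs. Without it the Fos ratio over the class was -0.96, an alternative chosen after seeing the data. Atf3 had 19 UMIs in WT and 4 in cKO cells of the largest cluster (-2.81, -4.83 to -1.23). In the Esco2 and histone-led cluster it had 3 and 12 UMIs (1.16, -0.73 to 3.63). The mitosis-led cluster held 4 and 4 Atf3 UMIs and the last cluster 0 and 4.

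**Figure D4:**
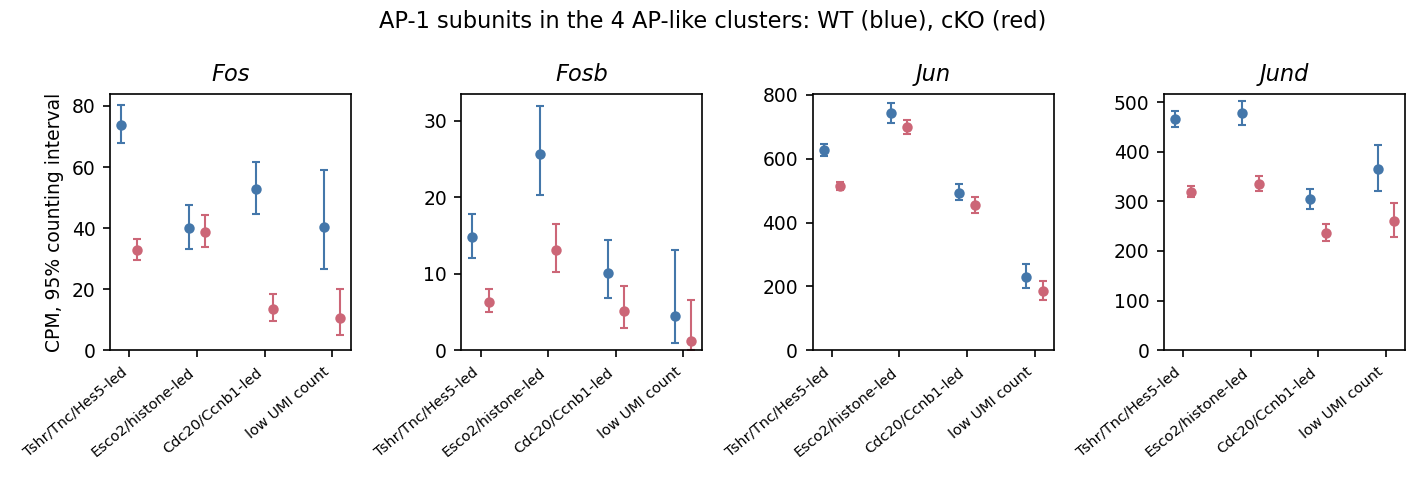
CPM with 95% counting intervals of Fos, Fosb, Jun and Jund in the 4 clusters that make up the AP-like class, WT in blue and cKO in red, with axes that start at 0. The Fos intervals of the genotypes overlap in the Esco2 and histone-led cluster (39.96 and 38.7 CPM) and are apart in the Tshr, Tnc and Hes5-led one (73.8 and 32.9 CPM).

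Fos RNA was uneven among AP-like cells. The 5% of cells with the most Fos UMIs held 59.7% of them in WT and 48.5% in cKO cells, against 21.6% and 20.5% for Jun, and the highest cell had 30 Fos UMIs in WT and 11 in cKO. With cells thinned to 5000 UMIs, which left 818 WT and 1180 cKO cells, 16.01% of WT (95% exact binomial interval 13.6% to 18.7%) and 12.1% of cKO cells (10.3% to 14.1%) had a Fos UMI, and unthinned shares were 26.8% and 22.9%. Cells with 3 or more Fos UMIs were 31 (3.79%) in WT and 9 (0.763%) in cKO. The share with any Fos UMI thus differed less than the share with several. As a class that should lack Fos, red blood cell-like barcodes had a Fos UMI in 0 of 54 in WT, which allows a share of up to 5.56%, and in 5.36% of 56 in cKO, at medians of 3569.5 and 3099.5 UMIs against 12789 and 12912 in AP-like cells.

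At this equal depth UMIs of Fosb and Egr1 were more frequent in cells with a Fos UMI than in the others. Among WT AP-like cells with a Fos UMI 16.8% also had a Fosb UMI, against 4.22% of those without, and in cKO the shares were 8.39% and 1.83%. The corresponding shares for Egr1 were 43.5% and 13.8% in WT and 34.3% and 11.2% in cKO. For Jun, found in most cells, they were 86.3% and 85.7% in WT and 91.6% and 82.1% in cKO. For the heat shock gene Dnajb1 they were 16.03% and 14.1% in WT and 14.7% and 15.9% in cKO. Cells of 1 embryo are not replicates, and these shares describe 1 library each; Egr1 and Dnajb1 were picked after values were seen.

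The list of other immediate early genes summed to 746 CPM in WT and 666 CPM in cKO AP-like cells (log2 ratio -0.16, -0.20 to -0.13), and of 17 genes with at least 100 UMIs none was past 1.5-fold lower and 1 was past it higher, Klf10 (120 and 260 UMIs, 0.60, 0.28 to 0.92). Its 4 genes named for the cultures were rare here: Egr3 had 10 and 2 UMIs, Egr2 had 2 in each, Egr4 had none in either, and Klf2 had 51 and 42 (-0.80, -1.42 to -0.18). Egr1, named after its values were seen, had 1187 and 1194 UMIs (-0.51, -0.63 to -0.39) and had been at 57.9 and 1050 CPM in WT and cKO cultures on average. The heat shock list summed to 7337 and 7353 CPM, a log2 ratio of 0.003 (-0.01 to 0.01), and the median mitochondrial share was 1.42% in WT and 1.34% in cKO. Zfp36 had 18 and 20 UMIs. In none of the regulator, JNK, ERK, AU-rich decay or AP-1 target lists was a gene with at least 100 UMIs past 1.5-fold, and of the leucine zipper list 1 was. This was Batf3, a partner of Jun proteins, with 46 UMIs in WT against 153 in cKO cells (1.21, 0.73 to 1.72). Klf10 and Batf3 fell outside the rule for naming genes and were named after their values were seen.

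Microglia-like and vascular cells carry far more Fos than progenitors, so their markers were read within the AP-like class. The 9 microglia markers summed to 10.1 CPM in WT and 12.8 CPM in cKO cells, the 9 endothelial markers to 11.3 and 9.29 CPM, and the 8 fibroblast markers to 2.56 and 3.33 CPM, with Aldh1a2 at 0 in both. The 8 pericyte markers summed to 47.8 and 52.8 CPM and the 8 red blood cell markers to 85.1 and 283 CPM. The Fos ratio was -1.09 with called doublets removed.

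In intermediate progenitor (IP)-like cells, the neuron-producing daughters of APs, Fos and Fosb summed over the class were again lower in cKO. Fos was at 35.0 CPM in WT against 17.9 CPM in cKO cells (log2 ratio -0.96, -1.25 to -0.68) and Fosb at 8.54 and 1.84 CPM (-2.21, -3.10 to -1.42; 71 and 16 UMIs). Jun was at 177 and 142 CPM (-0.31), Junb at 6.49 and 3.68 CPM (-0.82, -1.50 to -0.16) and Jund at 453 and 340 CPM (-0.42). Of 3 members with at least 100 UMIs only Fos was past 1.5-fold, beside 2.91% of all such genes. The Fos ratio differed among the clusters of the class. It was -0.89 (-1.23 to -0.56) in cluster 8 and -2.22 (-3.30 to -1.28) in cluster 20. In cluster 18 (87 WT, 115 cKO cells) Fos was at 14.6 and 15.3 CPM (0.07, -0.78 to 0.95), so no difference was detectable there.

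In migrating neuron-like cells 3 of 6 members with at least 100 UMIs were past 1.5-fold, all lower in cKO, beside 4.63% of such genes. Fos was at 32.3 and 20.01 CPM in WT and cKO cells (-0.69, -0.83 to -0.56), Fosb at 3.70 and 1.43 CPM (-1.37, -1.87 to -0.89) and Jun at 164 and 103 CPM (-0.66, -0.72 to -0.60). Of the 127 WT and 51 cKO Fosb UMIs, 91 and 28 lay in cluster 1, and the Fosb intervals of clusters 0, 6 and 11 crossed zero. The Fosb ratio became -0.88 with clustering at resolution 1.2. Junb did not follow, at 11.05 and 11.2 CPM (0.02, -0.19 to 0.22). Jund was the leading member, at 567 and 445 CPM (-0.35).

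In immature neuron-like cells Fosl2, which was rare in progenitors, gave 15.7 CPM (13.9 to 17.7) in WT against 8.85 CPM (7.55 to 10.3) in cKO cells, a log2 ratio of -0.83 (-1.12 to -0.54), against 1.07 and 1.04 CPM in AP-like and 2.51 and 1.94 CPM in migrating neuron-like cells. Of the 2 clusters in the class, cluster 2 (698 WT, 752 cKO cells) gave 18.95 and 10.5 CPM (-0.86, -1.17 to -0.55), whereas cluster 10 (314 and 460) gave 5.50 and 5.05 CPM (-0.13, -0.98 to 0.75). Fosl2 was the 1 member of 5 with at least 100 UMIs past 1.5-fold, beside 2.78% of such genes. Fosb, with only 44 and 27 UMIs, was at 2.66 and 1.45 CPM (-0.88, -1.62 to -0.15). Fos was low at 10.7 and 8.37 CPM (-0.35, -0.67 to -0.03), and Jun was at 77.0 and 61.8 CPM (-0.32).

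Ganglionic eminence-like cells, 1195 in WT and 1646 in cKO, come from a region in which Emx1-Cre does not act, and so carry the label of the embryo without the deletion. Fos gave 19.2 CPM (16.7 to 22.0) in WT against 20.2 CPM (17.99 to 22.7) in cKO cells, a log2 ratio of 0.08 (-0.19 to 0.34). Its interval lay apart from that of AP-like cells, and the source of that difference was not tested. Jun was at 149 and 140 CPM (-0.09, -0.18 to 0.01) and Jund at 347 and 308 CPM (-0.17, -0.23 to -0.11). Junb was higher in cKO, at 6.84 and 10.7 CPM (0.64, 0.23 to 1.06), and was the 1 of 4 members with at least 100 UMIs past 1.5-fold, beside 2.02% of such genes. Fosb had 29 and 21 UMIs, with a ratio of -0.87 (-1.75 to -0.01), so the Fosb ratio was negative in this class too. The list of other immediate early genes summed to 343 and 366 CPM and the heat shock list to 5087 and 4905 CPM.

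The highest levels of most members lay outside the neural lineage, in classes of few cells. In microglia-like cells (31 WT, 49 cKO) Fos was at 1172 and 801 CPM, Jun at 1301 and 1008, Junb at 968 and 394, and Atf3 at 675 and 745 CPM. Atf3, at most 1.85 CPM in the neural classes, thus had its highest level here, with a log2 ratio of 0.14 (-0.11 to 0.39). The class joins cluster 27 (17 WT, 16 cKO cells) with cluster 25 (14 and 33), whose cells had a median of 2064 UMIs against 18604. The Fos log2 ratio was -0.37 (-0.59 to -0.15) in cluster 27 and 0.15 (-1.26 to 1.78) in cluster 25 against -0.55 in the whole class. Atf3 stood at 0.32 (0.07 to 0.58) in cluster 27 and 1.46 (-0.66 to 4.64) in cluster 25. In endothelial-like cells (24 and 33) Fos was at 221 and 53.3 CPM (-2.05, -2.49 to -1.64), Junb at 359 and 165 CPM (-1.12), and Atf3 at 64.1 and 22.97 CPM (-1.48). In meningeal fibroblast-like cells (90 each) Fos was at 397 and 201 CPM (-0.98, -1.34 to -0.63). Endothelial cells do not descend from Emx1-expressing progenitors. The endothelial-like cells held a median of 39427 UMIs in WT and 22067 in cKO, and the source of their Fos ratio was not tested. In pericyte-like cells (27 and 18) Jun went the other way, at 531 and 1154 CPM (1.12, 0.85 to 1.39), while Fos was at 219 and 147 CPM (-0.58, -1.19 to 0.01).

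Ordered by WT level, Fos ran from microglia-like cells through fibroblast-like, endothelial-like and pericyte-like cells to AP-like, IP-like, migrating neuron-like and ganglionic eminence-like cells, Cajal-Retzius-like cells (15.96 CPM) and immature neuron-like cells, with red blood cell-like cells at 0 UMIs. Endothelial-like and pericyte-like cells did not differ beyond counting error, nor did IP-like and migrating neuron-like cells, nor Cajal-Retzius-like cells and their neighbours on either side. Jun followed a like order among neural cells with a steeper step, AP-like cells standing at 605 CPM against 177 in IP-like, 164 in migrating neuron-like and 77.0 CPM in immature neuron-like cells. Jund was even, from 296 CPM in immature neuron-like to 707 CPM in microglia-like WT cells apart from red blood cell-like cells at 93.5 CPM. Fosl1 had at most 11 UMIs in any class of either embryo.

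**Figure D5:**
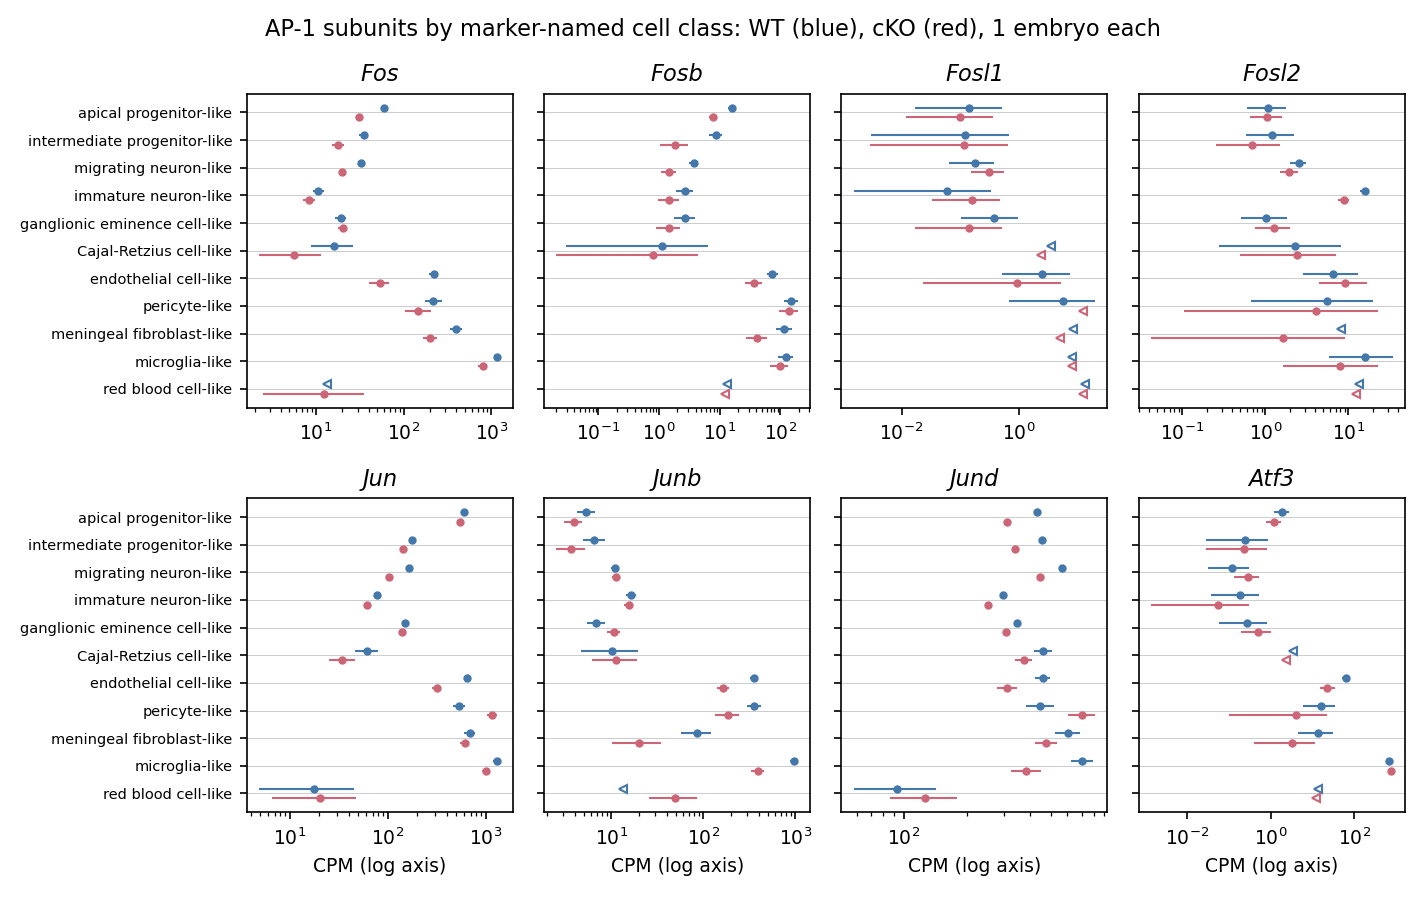
CPM (log axis, its range differing between panels) of each member in 11 marker-named cell classes, WT embryo in blue and cKO embryo in red, with 95% counting intervals; open triangles mark classes with 0 UMIs, drawn at the value of 3 UMIs. Fos, Jun, Junb and Atf3 are highest in microglia-like cells, at 1172, 1301, 968 and 675 CPM in WT, while Fosl2 stands out among neural classes in immature neuron-like cells, at 15.7 CPM.

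Over the 21 sums of a class in a library with at least 20 cells, which cover 11 classes and share 2 libraries, the level of Fos went with that of Fosb (Pearson r = 0.92 of log2(CPM + 1)), Jun (r = 0.91), Atf3 (r = 0.85), Junb (r = 0.81) and Jund (r = 0.71), and less with Fosl2 (r = 0.38). The non-member genes most like Fos were Lamp2, Elf1, B4galt1, Gm13684 and Ier3 (r from 0.95 to 0.93), those most like Jun were AI506816, Cpt1a, Rhog, Clic1 and Elf1 (r from 0.95 to 0.93), and those most like Atf3 were Stab1, Cd83, Laptm5, Ctsc and Gmfg (r from 0.98 to 0.97). The points share libraries and differ in depth, and the correlations are a description.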

How the data were processed

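For the cultures, the deposited table holds raw counts of each gene in each culture, made by the authors: reads were aligned to mm10 with HISAT2, per the labels, and counted without normalization. How reads were assigned to genes, and whether by strand, is not given in the sources used here. For the embryos, the deposited matrices hold unnormalized UMI counts by gene and barcode, which the authors made with Cell Ranger 7.0.0, with no further filter visible in the files. Culture counts were filtered by filterByExpr, scaled by TMM and fitted across all genes with edgeR 4.0.16 in R 4.3.3 (robust quasi-likelihood test, Benjamini-Hochberg, threshold 0.05). The fit was also run on simulated counts. These held a far smaller share of changed genes than the 39.5% called here, so that run does not cover a contrast of this breadth. The study names DESeq2, which was run as an alternative. Cells needed 200 genes or more and no more than 10% mitochondrial UMIs, and were clustered with Seurat 5.3.0 (2000 variable genes, 30 components, resolution 0.8). A cluster took the name of the marker list with the highest mean score, at least 0.5, if at least 3 markers were raised 1.5-fold and no other list led its top 10 genes; these limits were set after clusters were seen. Scrublet in scanpy 1.11.5 called 284 WT and 446 cKO cells doublets, which were kept in the values given. Ratios carry exact conditional 95% intervals, which cover counting error only, and 3 UMIs stand for the limit of a count of 0. Sequences are from RefSeq.

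The members and all lists were chosen with earlier results of these data known. Genes named are the 8 members, up to 4 called genes per list with the largest fold change at 1 CPM or more, and the 5 genes most like Fos, Jun and Atf3. One gene that the rule names is not reported here. The correlation of deviations from group means for cultures of the same number was 0.264, -0.0466 and 0.116, so the numbers were not taken to pair cultures. LACE-seq samples (3) were not analysed here.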

Additional observations from a re-analysis of the deposited data

Results flagged for a closer look

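Fos, Fosb and Jun went one way in every cKO culture and the other way in AP-like cells of the cKO embryo. For Fos, the log2 fold change was 3.33 in cultures and the log2 ratio was -0.97 in AP-like cells. For Fosb, the values were 4.50 and -1.01, and for Jun 0.42 and -0.16. The difference between cultures and embryo was not tested, since the embryos had 1 sample per genotype and were measured by another assay. Jun in AP-like cells was within 1.5-fold, whereas Fos and Fosb were past it.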

How the results depend on the processing

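In cultures, 6 of the 8 members were called higher under all 14 alternatives: RLE or upper quartile scaling, a filter of 1 CPM in 3 cultures or none, DESeq2, limma-voom, the sex of the culture as covariate, the replicate block, and leaving out each culture. Of all 14432 genes tested in the main fit, 5701 (39.5%) were called in either direction and 19.7% were called higher. The total called in either direction was 5532 with DESeq2 and 6405 with the replicate block, in which 6 members were also called. Leaving out a culture gave 4108 to 6345. Shares called higher are not given for the alternatives. The members were chosen on this contrast and the alternatives refit the same cultures, so nothing is read from their calls. The member log2 fold changes kept their sign except that of Fosl2, which was not called and ran from -0.42 to 0.09 when a culture was left out. In AP-like cells, 2 members were past 1.5-fold, and 2 or 3 under 7 alternatives (resolution 0.4 or 1.2, at most 5% mitochondrial UMIs, doublets removed, cells weighted equally, cells thinned to 5000 UMIs, or, added after seeing the data, without the cluster of low UMI count). Junb was the third. Fos there ran from -1.09 to -0.96, Fosb from -1.24 to -0.99 and Jun from -0.17 to -0.10. In the other 4 classes 6 values were past 1.5-fold, and 5 to 8 under the alternatives. Jun in ganglionic eminence-like cells was -0.09 and became 0.06 with cells weighted equally. Junb in migrating neuron-like cells, near zero, ran from -0.18 to 0.04. With 1 embryo per genotype, depth limits Fosl1, Atf3 and Fosl2 in progenitors to a few UMIs.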
